A study of Mus musculus with 2 samples.

Results

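Mitosis and cytokinesis were described through 34 genes of the 31053 genes in the count tables, taken by their symbols from a list of regulators, kinases, motors and scaffolds of cell division. All 34 had at least 1 UMI (a unique molecular identifier, 1 counted transcript) in myeloid cells of both libraries. The cells were sorted as CD11b positive and F4/80 positive from pooled retinas of C57BL/6j mice at postnatal day 17. The oxygen-induced retinopathy (OIR) pups had been through high oxygen and then room air, a model of pathological retinal vessel growth, and the control pups were kept in room air (RA). Each condition had 1 library, so no test between conditions was possible, and the 95% intervals in parentheses cover counting error only.

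A cell enters mitosis when cyclin B bound to Cdk1 becomes active. Aurora, Polo-like and Bub kinases, the kinetochore and spindle motors then align the chromosomes. The anaphase-promoting complex with Cdc20 destroys cyclin B as the sister chromatids part. The midzone proteins and the contractile ring finish division by cutting the cell apart. Transcripts of these genes build up from S phase and peak in G2 and mitosis, after those of the replication genes. Many of their promoters carry a cell cycle genes homology region (CHR), a short element known from late cell cycle genes, often beside a CCAAT box, while E2F sites are known from replication genes.

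The members share such promoter letters. Of the 34 members 29 matched the RefSeq promoter table (build GRCm38.p6), which holds for each of their 31 promoters the 250 bases before the transcription start and 50 bases after it. A CHR, searched on both strands as TTTGAA or TTCGAA, lay in 26 of these 31 promoters (83.9%), against 19.2% of all 32851 promoters in the table. None of the 5 promoters of the replication genes Mcm5, Mcm6, Tyms, Rrm2 and Pclaf held it, and Birc5, Ccnb1, Cenpe, Nusap1 and Nuf2 were the matched members without it. CCAAT, on either strand, stood in 25 of the 31 promoters (80.6%), against 37.4% of all promoters and 4 of the 5 promoters of replication genes. An E2F site, searched on both strands as the letters TTCGCGC or the letters TTGGCGC or the letters TTCCCGC, stood in 6 of the 31 (19.4%), against 8.07% of all and 3 of the 5 replication genes. Of 60 other mitosis genes 49 matched, and 37 of their 56 promoters (66.1%) held a CHR. These matches are a description of letters and not of bound sites, and each motif was searched by itself, so matches of different motifs may share letters.

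The 150 bases before the start of 5 members are shown, 5′ to 3′ on the strand of the gene, with CHR letters (or their reverse complement) in capitals. They belong to the kinase Cdk1 (chr10:69352913-69353062, minus strand), the activator of chromatid separation Cdc20 (chr4:118437344-118437493, minus), the ubiquitin-conjugating enzyme Ube2c (chr2:164769779-164769928, plus), the DNA-untangling enzyme Top2a (chr11:99024190-99024339, minus) and the spindle motor Kif11 (chr19:37376232-37376381, plus). The same stretch of Mcm6, a subunit of the replicative helicase (chr1:128359706-128359855, minus), follows with its E2F letters in capitals, where 2 overlapping matches on opposite strands form each block.
Cdk1: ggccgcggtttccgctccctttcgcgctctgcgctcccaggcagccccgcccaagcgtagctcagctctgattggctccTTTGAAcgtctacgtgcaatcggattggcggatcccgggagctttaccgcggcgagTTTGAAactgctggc
Cdc20: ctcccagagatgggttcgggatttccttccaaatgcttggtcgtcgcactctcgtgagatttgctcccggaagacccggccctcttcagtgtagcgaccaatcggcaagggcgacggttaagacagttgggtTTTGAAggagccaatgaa
Ube2c: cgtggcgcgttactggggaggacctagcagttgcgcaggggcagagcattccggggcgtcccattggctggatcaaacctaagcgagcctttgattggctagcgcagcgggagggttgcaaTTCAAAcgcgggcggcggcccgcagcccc
Top2a: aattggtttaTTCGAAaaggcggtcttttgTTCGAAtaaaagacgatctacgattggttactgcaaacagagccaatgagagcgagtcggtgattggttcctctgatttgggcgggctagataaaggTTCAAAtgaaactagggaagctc
Kif11: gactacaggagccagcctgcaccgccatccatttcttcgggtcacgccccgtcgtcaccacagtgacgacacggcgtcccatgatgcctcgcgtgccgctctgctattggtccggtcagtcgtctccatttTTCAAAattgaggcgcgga
Mcm6: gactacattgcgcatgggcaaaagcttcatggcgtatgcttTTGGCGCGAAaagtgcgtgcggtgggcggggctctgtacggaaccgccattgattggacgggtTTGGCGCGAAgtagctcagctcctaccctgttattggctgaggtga

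The RA library held 1449 cells and 12810892 UMIs, and the OIR library 1259 cells and 9835402 UMIs, with 0 barcodes in common. After filters 1295 RA and 1179 OIR cells were kept, of which 972 and 929 were myeloid. Clusters built without cell cycle genes gave 824 RA and 652 OIR microglia, 92 and 152 macrophages, 53 and 95 monocytes, and 3 and 30 cells in a cluster without a cell type name, whose 10 leading genes were all cycle genes. In 2 microglia clusters and 1 macrophage cluster over 50% of cells held no UMI of the nuclear RNA Malat1 (called low in Malat1 here), and their cells were shallow. Of the larger microglia clusters, 1 was led by stress genes such as Jun and Ddit3 and the other by Tnf and Nr4a3. Rods, photoreceptors that have left the cell cycle, gave the background: the 34 members together stood at 48.9 CPM (UMIs of a gene or list, scaled to the same total in every class) in RA rods and 78.3 CPM in OIR rods. Cells with replication genes were those with a UMI of at least 3 of Mcm5, Mcm6, Tyms, Rrm2 and Pclaf.

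Which classes held dividing cells was read from 2 shares, of cells with replication genes and of cells with a UMI of 10 or more of the 34 mitosis genes. In OIR microglia and macrophages held such cells, and so did the monocyte cluster, with 3 and 7 of 95 cells. These 3 cells with replication genes also carried microglia markers. So did the monocyte cluster as a whole, at 5506 CPM of the microglia list over both libraries. In RA 8 myeloid cells met each limit. Among OIR microglia 41 of 652 cells (6.29%, 4.55% to 8.43%) had replication genes and 52 (7.98%, 6.01% to 10.3%) held 10 or more mitosis genes. Among RA microglia 2 of 824 cells (0.243%, 0.0294% to 0.874%) met each of these limits. The intervals of the 2 libraries did not overlap for microglia in either share. The OIR cells were also shallower, with a median of 6243 UMIs in microglia against 10153 in RA.

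Among OIR macrophages 18 of 152 cells (11.8%, 7.17% to 18.1%) had replication genes, and 22 (14.5%, 9.30% to 21.1%) held 10 or more mitosis genes. Among RA macrophages these were 2 of 92 cells (2.17%, 0.264% to 7.63%) and 3 cells (3.26%, 0.678% to 9.23%). The intervals of OIR and RA macrophages overlapped for replication genes, and for mitosis genes their bounds were 9.30% and 9.23%. With each cell thinned to 2000 UMIs the intervals overlapped there too, at 9 of 128 OIR cells (7.03%, 3.27% to 12.9%) and 2 of 87 RA cells (2.30%, 0.280% to 8.06%). Without the filter on gene number, 30 of 180 OIR macrophages (16.7%, 11.5% to 22.9%) and 2 of 107 RA macrophages (1.87%, 0.227% to 6.59%) had replication genes. Those intervals did not overlap. For replication genes they also separated with at least 2 of the 5 genes required or a mitochondrial limit of 10%, and overlapped in the other settings. The RA macrophage with replication genes and 11 members held 323 UMIs of the microglia list and 40 of the macrophage list, and by markers in the cell the RA share was 1 of 67 (1.49%). In monocytes 3 of 95 OIR cells (3.16%, 0.656% to 8.95%) and 1 of 53 RA cells (1.89%, 0.0478% to 10.1%) had replication genes, and 7 (7.37%, 3.01% to 14.6%) and 1 held 10 or more mitosis genes. The monocyte intervals overlapped in both shares. No rod met either limit, 0 of 299 in RA and 0 of 228 in OIR, at a median of 1765 and 1260.5 UMIs. With 3 cells as the limit a count of 0 allows shares of up to 1.0% and 1.32%, and the exact upper bounds were 1.23% and 1.60%.

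**Figure D1:**
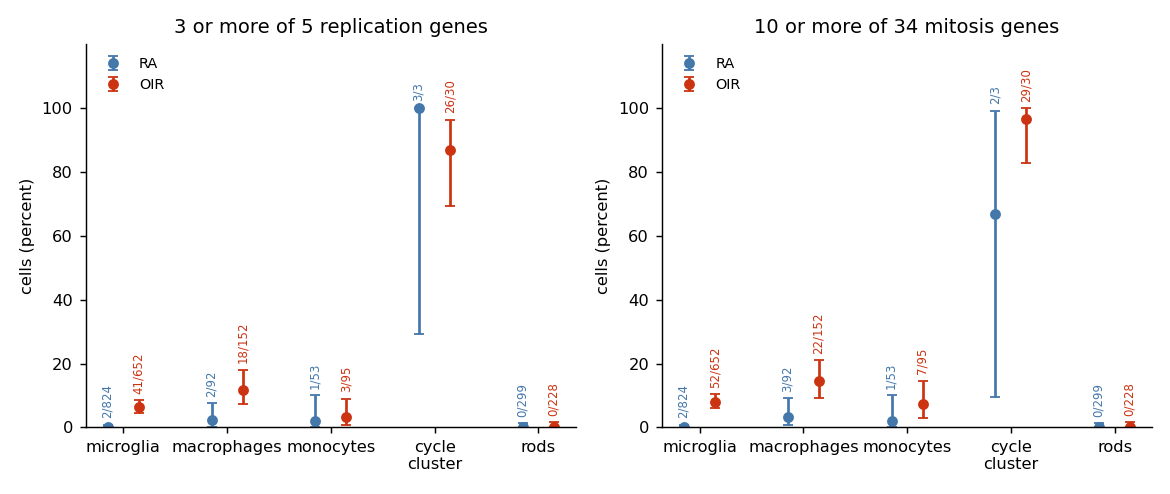
Percent of cells (vertical axis) with 3 or more of 5 replication genes (left) and with 10 or more of 34 mitosis genes (right), by class, RA in blue and OIR in red, with exact binomial 95% bars and cell counts above each point. OIR microglia (41 and 52 of 652) and OIR macrophages (18 and 22 of 152) stand above their RA counterparts. The macrophage bars overlap on the left and nearly touch on the right, and the monocyte bars overlap in both. The cluster led by cycle genes (cycle cluster), picked out through leading genes that include members, stands highest, and rods are at 0.

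The cluster led by cycle genes held 30 OIR cells and 3 RA cells, and its summed member level was 9308 CPM in OIR and 9313 CPM in RA. Its 3 RA cells held 4, 182 and 408 member UMIs, so the RA level describes those cells and no more. Of the OIR cells 29 held 10 or more mitosis genes, with a median of 30 of the 34. The cluster's leading genes included the members Top2a, Mki67, Prc1, Nusap1, Hmmr, Cenpf, Tpx2 and Ube2c. High member counts thus came with the way it was picked out, and they support nothing. Its markers sat with those of microglia: the 12 microglia genes summed to 15594 CPM, against 18471 CPM in all microglia and 7175 CPM in macrophages. The macrophage list summed to 264 CPM in it, against 184 CPM in microglia and 8482 CPM in macrophages, with Mrc1 at 12.6 CPM. The cluster was not given a cell type name, since no marker list reached the limits for a name. Counted with the microglia, it raised their OIR share with replication genes to 67 of 682 cells (9.82%).

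The monocyte cells with replication genes were few enough to be given singly. The RA cell held 33 of the 34 members in 243 UMIs, and it alone carried 79.9% of the members' UMIs in RA monocytes. It also held 1235 UMIs of the neutrophil list (S100a8, S100a9, Retnlg, Mmp8, Csf3r and Cxcr2), 289 of the monocyte list and 4 of the microglia list. The 3 OIR cells held 32, 31 and 22 members, and the last of these carried 462 UMIs of microglia markers beside 23 of monocyte markers. The other 2 OIR cells held 49 and 211 microglia and 58 and 53 monocyte UMIs, with 0 and 5 UMIs of the neutrophil list. By markers in the cell, 1 of 59 OIR monocytes (1.69%) had replication genes.

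Cells with more replication genes held more mitosis genes. In OIR, 12 of 591 myeloid cells without a replication gene (2.03%) held 10 or more mitosis genes, and 34 of 37 cells with all 5 (91.9%, 78.1% to 98.3%) did. Over both libraries the median was 2 members in the 106 cells with exactly 2 replication genes, just outside the rule, and 6 in the 37 cells with exactly 3, just inside it. Cells with all 5 had a median of 26 members and 93 member UMIs. Depth moved with this order, from a median of 8728 UMIs at 0 replication genes to 19139 at 5, and its part was not tested. When every cell was thinned to 2000 UMIs, 54 of 553 OIR microglia (9.76%) and 2 of 791 RA microglia (0.253%) still held 3 or more members, against 97 of 652 (14.9%) and 9 of 824 (1.09%) before thinning. Thinned macrophages gave 24 of 128 in OIR (18.8%) and 2 of 87 in RA (2.30%), and thinned rods 0 of 74 and 0 of 126. Thinning left out 99 OIR and 33 RA microglia as too shallow.

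**Figure D2:**
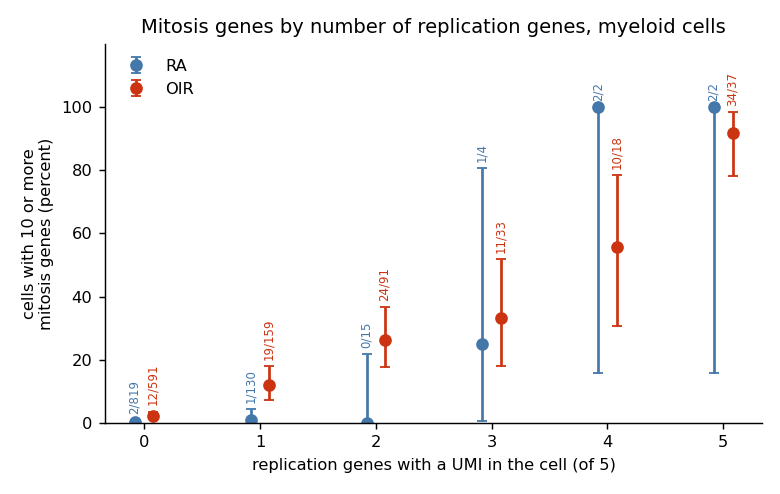
Percent of myeloid cells with 10 or more of the 34 mitosis genes (vertical axis) by the number of replication genes with a UMI in the cell (horizontal axis), RA in blue and OIR in red, with exact binomial 95% bars and cell counts. The OIR share climbs from 12 of 591 cells at 0 to 34 of 37 cells at 5.

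In cells with replication genes the 34 members together stood at 4492 CPM in the 88 OIR cells (6128 UMIs) and at 5799 CPM in the 8 RA cells (888 UMIs). The OIR cells were 41 microglia, 18 macrophages, 3 monocytes and 26 cells of the cluster led by cycle genes. The RA cells were 2, 2, 1 and 3 of these. Without the cluster led by cycle genes 2593 OIR and 294 RA member UMIs remained. Levels of single members below are those of this mixed set, while the 41 OIR microglia alone stood at 2299 CPM. In the other microglia the members stood at 386 CPM in OIR (1614 UMIs, 611 cells) and 33.2 CPM in RA (269 UMIs, 822 cells). The ratio within OIR was 3.54 on the log2 scale (3.46 to 3.62), and within RA 7.45 (7.25 to 7.65). Outside both classes, here and below, were the 4 OIR cells of the cluster led by cycle genes without replication genes, with 1062 member UMIs. Counted as other microglia, they would raise the OIR level of that class and lower the ratio within OIR. All 34 members were at least 2-fold higher in OIR, with a median of 3.55, against 11.3% of all 10528 genes compared, whose median was 0.12, and none was 2-fold lower, where 4.28% of all genes were. In RA 29 members reached 10 UMIs over both classes and were at least 2-fold higher, where 33.4% of all 11002 genes were and 8.16% were 2-fold lower. Here and in the comparisons below, a member with few UMIs in the lower class reached that limit only through the class where it was high, so these counts are a description and support nothing. RA other microglia were not above RA rods in the summed level (log2 -0.56, -1.0 to -0.09), with 1 of 10 members compared at least 2-fold higher and 4 lower, where 25% and 34.6% of all genes were. OIR other microglia were above OIR rods (log2 2.30, 1.89 to 2.74), with 18 of 33 members at least 2-fold higher and 3 lower, where 24.2% and 35.4% of all genes were. The 2 ratios rest on unlike reference cells, since 34 of the 611 OIR other microglia themselves held 10 or more members.

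**Figure D3:**
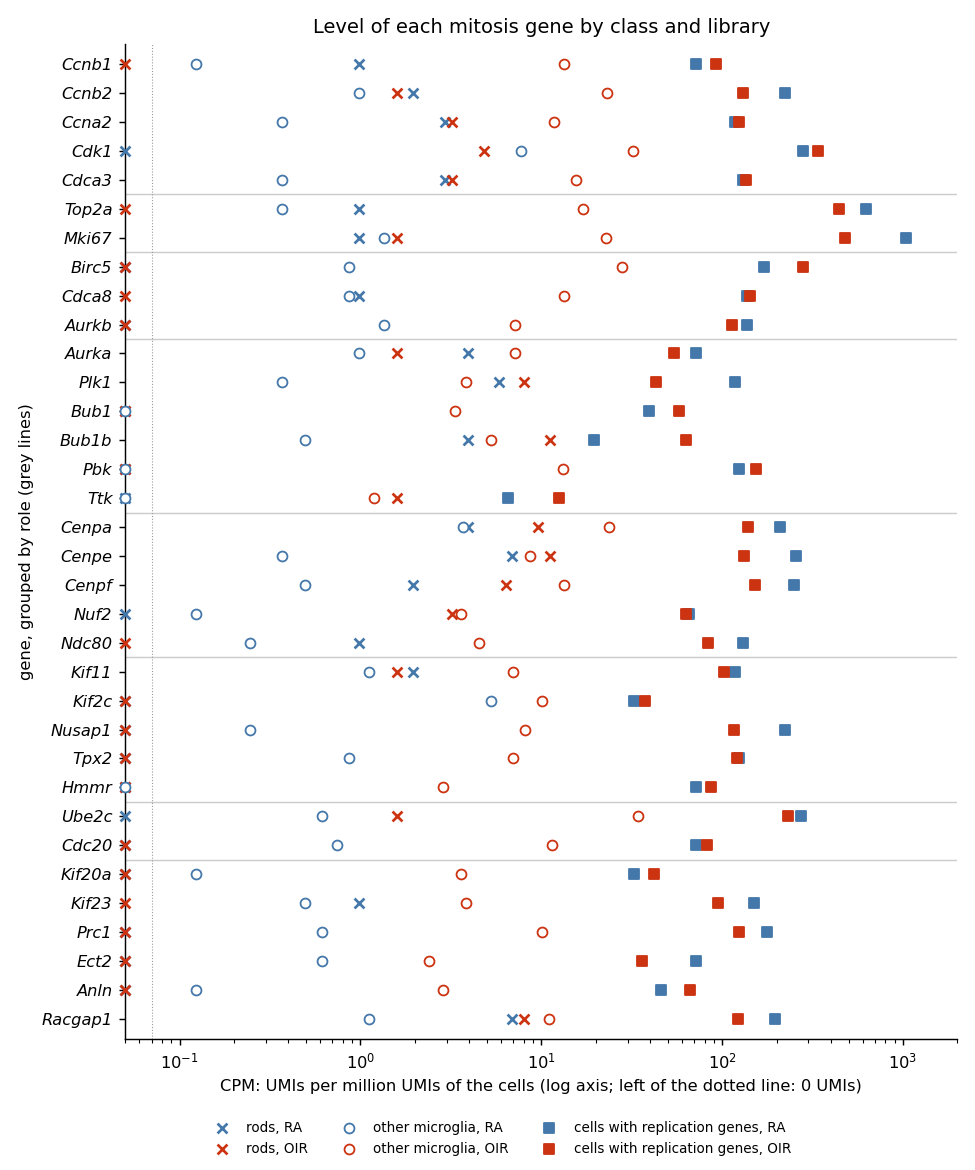
Level of each of the 34 members in CPM (horizontal log axis, 0 UMIs left of the dotted line), with genes grouped by role in the order of the text, squares for cells with replication genes, circles for other microglia and crosses for rods, RA in blue and OIR in red. For every gene the squares lie to the right of the circles of the same colour, and the red circles lie to the right of the blue ones.

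The cyclins and their partners marked entry into mitosis. Cdk1, the kinase that starts mitosis, stood at 339 CPM in OIR and 281 CPM in RA cells with replication genes, and at 32.0 and 7.77 CPM in other microglia. It was found in 76 of the 88 OIR cells (86.4%) and in 7 of the 8 RA cells. Its partner cyclin B2 (Ccnb2) stood at 130 and 222 CPM against 22.9 and 0.986 CPM, and cyclin B1 (Ccnb1) at 92.4 and 71.8 CPM against 13.4 and 0.123 CPM. Cyclin A2 (Ccna2), which acts from S phase to early mitosis, stood at 125 and 118 CPM against 11.7 and 0.37 CPM. Cdca3, which triggers destruction of the Wee1 kinase, stood at 135 and 131 CPM against 15.5 and 0.37 CPM. The 5 genes together were 3.1 higher on the log2 scale (2.94 to 3.27) in OIR cells with replication genes, a smaller ratio than the 3.85 (3.58 to 4.12) of the 6 midzone and cytokinesis genes.

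Top2a, which untangles sister DNA, and Mki67, the Ki-67 coat of mitotic chromosomes, had the highest ratio of any role in OIR, 4.53 (4.30 to 4.78). Top2a stood at 441 CPM in OIR and 620 CPM in RA cells with replication genes, against 17.0 and 0.37 CPM in other microglia. Mki67 stood at 479 and 1038 CPM against 22.7 and 1.36 CPM. Log2 of OIR over RA in these cells was -0.49 (-0.81 to -0.17) for Top2a and -1.12 (-1.37 to -0.86) for Mki67, and 3 of the 8 RA cells held 182, 408 and 243 of the 888 member UMIs.

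The chromosomal passenger complex, which corrects faulty spindle attachments, had 3 members. Birc5 (survivin) stood at 279 CPM in OIR and 170 CPM in RA cells with replication genes, against 28.0 and 0.863 CPM in other microglia. Aurkb, its kinase, stood at 114 and 137 CPM against 7.17 and 1.36 CPM. Cdca8 (borealin) stood at 143 and 137 CPM against 13.4 and 0.863 CPM. Together they were 3.46 higher on the log2 scale (3.24 to 3.69) in OIR.

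Of the other mitotic kinases, Plk1, which acts at centrosomes and kinetochores, stood at 43.2 CPM in OIR and 118 CPM in RA cells with replication genes, against 3.82 and 0.37 CPM in other microglia. Aurka, the centrosomal Aurora kinase, stood at 54.2 and 71.8 CPM against 7.17 and 0.986 CPM. The checkpoint kinase Bub1 and its relative Bub1b stood at 57.9 and 63.0 CPM in OIR cells with replication genes and at 3.35 and 5.26 CPM in OIR other microglia. In RA other microglia Bub1 had 0 UMIs, so its RA ratio was at least 6.73 on the log2 scale, and Pbk, a kinase active in mitosis, had 0 UMIs there too, with a ratio of at least 8.39. Ttk, the checkpoint kinase Mps1, was the thinnest of the members, with 17 UMIs in the 88 OIR cells and 1 in the 8 RA cells. In rods Plk1 stood at 7.99 CPM in OIR and 5.87 CPM in RA and Bub1b at 11.2 and 3.91 CPM, from 4 to 7 UMIs, above their level in other microglia of the same condition, so rods are no common background for these genes.

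At the kinetochore, Cenpa, the histone H3 variant of centromeres, stood at 139 CPM in OIR and 209 CPM in RA cells with replication genes, against 23.7 and 3.70 CPM in other microglia. Cenpe, a kinetochore motor, stood at 132 and 255 CPM against 8.61 and 0.37 CPM, and Cenpf at 152 and 248 CPM against 13.4 and 0.493 CPM. Ndc80 and Nuf2, which form the microtubule-binding rod, stood at 83.6 and 63.0 CPM in OIR and at 131 and 65.3 CPM in RA cells with replication genes. Their levels in other microglia were 4.54 and 3.59 CPM in OIR and 0.247 and 0.123 CPM in RA. Ndc80 was 4.20 higher (3.49 to 4.99) and Nuf2 4.14 higher (3.33 to 5.03) on the log2 scale in OIR, while Cenpa was 2.55 higher (2.19 to 2.92).

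Among the spindle genes Hmmr, a spindle assembly factor, had the largest ratio of all 34 members in OIR, 4.93 (4.07 to 5.92), from 87.2 CPM against 2.87 CPM. Tpx2, which activates Aurka on the spindle, stood at 120 against 6.93 CPM, Kif11, the motor that pushes spindle poles apart, at 102 against 6.93 CPM, and Nusap1, which bundles microtubules, at 116 against 8.13 CPM. Kif2c, which takes microtubules apart at centromeres, had the smallest ratio, 1.90 (1.28 to 2.52), from 37.4 against 10.0 CPM. Kif2c was also found in 42 of the 822 RA other microglia (5.11%) at 5.30 CPM, and in 0 of the rods of either library.

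The partners of the anaphase-promoting complex had the lowest ratio of any role in OIR, 2.77 (2.52 to 3.03). Ube2c, which hands ubiquitin to that complex, stood at 230 CPM in OIR and 274 CPM in RA cells with replication genes, against 34.2 and 0.616 CPM in other microglia. Cdc20, its activator, stood at 82.1 and 71.8 CPM against 11.5 and 0.74 CPM. Both belong to the genes below that made up more of the mitosis transcripts in cells without the replication genes.

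The genes that end division were also high. Prc1, which bundles the midzone, stood at 124 CPM in OIR and 176 CPM in RA cells with replication genes, against 10.0 and 0.616 CPM in other microglia. Racgap1 and the motor Kif23, the 2 parts of centralspindlin, stood at 122 and 95.3 CPM in OIR against 11.0 and 3.82 CPM. Kif20a, the midzone motor, and Anln, the anillin scaffold of the contractile ring, stood at 41.8 and 66.7 CPM against 3.59 and 2.87 CPM. Ect2, which activates RhoA for the ring, stood at 35.9 against 2.39 CPM. Genes of entry, chromosome alignment, anaphase and cytokinesis were thus all high in the summed counts of the cells with replication genes.

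Of 60 other mitosis genes 57 were at least 2-fold higher in OIR cells with replication genes than in OIR other microglia, against 11.3% of all genes, with a median of 3.68. Their summed ratio was smaller than that of the members, 2.76 (2.68 to 2.83) in OIR and 3.55 (3.43 to 3.68) in RA. In other microglia their OIR over RA ratio was 0.51 (0.43 to 0.60), with 27 of 45 compared at least 2-fold higher against 7.7% of all genes and 1 lower against 9.35%. The 5 with the largest ratio and at least 3 UMIs in both classes were the spindle gene Spag5 (5.73, 4.11 to 8.06), the midbody kinase Cit (5.05), the inhibitor of the anaphase-promoting complex Fbxo5 (5.03), the motor Kifc1 (5.01) and the transcription factor Mybl2 (4.89). The 3 below 2-fold were Bub3 (0.83), Espl1 or separase (0.66) and Pttg1 or securin (0.25), which stood at 102, 21.8 and 28.4 CPM in OIR other microglia.

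Microglia and macrophages with replication genes were set beside each other in OIR. The 18 macrophages with replication genes stood at 2573 CPM (2404 to 2751) and the 41 microglia with replication genes at 2299 CPM (2172 to 2431), a log2 ratio of 0.16 (0.04 to 0.29). In neither set were the 26 OIR cells with replication genes of the cluster led by cycle genes. That cluster, whose markers sat with those of microglia, stood at 9308 CPM in OIR. Counted with the microglia, its cells would raise their level, so the ratio depends on leaving them out. Of 33 members compared, 5 were at least 2-fold higher in the macrophages, where 11.8% of all genes were, and 3 were at least 2-fold lower, where 7.87% were. Bub1b (74.7 against 16.9 CPM, log2 2.15, 1.0 to 3.43) and Cenpe (126 against 43.1 CPM, log2 1.54, 0.77 to 2.34) were the members furthest above in macrophages, and Pbk (56.8 against 114 CPM, log2 -1.01, -1.84 to -0.25) was below. The ratio to the other cells of the same class was smaller in macrophages, 1.55 (1.42 to 1.68) with 25 of 33 members at least 2-fold higher against 8.48% of all genes, 0 lower against 7.47%, than in microglia, 2.58 (2.47 to 2.68) with 33 of 33 higher against 8.6% and 0 lower against 6.66%. The 3 OIR monocytes with replication genes stood 4.44 above the other monocytes (4.22 to 4.65), with 25 of 25 members higher against 22.3% of all genes and 0 lower against 9.26%. Over both libraries the macrophage list summed to 7539 CPM in macrophages with replication genes and 378 CPM in microglia with them. The microglia list summed to 6205 and 15786 CPM there. The classes were named by these lists, so these levels are a description and support nothing.

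Macrophages without replication genes held more member transcripts than microglia without them. In OIR the summed level was 877 CPM against 386 CPM (log2 1.18, 1.07 to 1.29), and 20 of 33 members were at least 2-fold higher, against 10.4% of all genes, and 0 were lower, against 7.27%. OIR monocytes without replication genes stood at 325 CPM, -0.25 against these microglia (-0.43 to -0.07), with 3 of 33 members at least 2-fold higher and 13 lower, where 12.9% and 10.7% of all genes were. Among cells with under 10 members the values stood in the other order, with overlapping intervals. They were 142 CPM in these monocytes (117 to 170) and 110 CPM in these microglia (100 to 121). Over all RA cells without replication genes the level was 224 CPM in macrophages (198 to 254) and 33.2 CPM in microglia, against 48.9 CPM in RA rods. Against rods, RA macrophages had 7 of 9 members higher and 1 lower (27.1% and 36.4% of all genes), and OIR macrophages 26 of 32 higher and 1 lower (28.1% and 33.3%). A few genes made up this RA level: Mki67 with 52 of the 259 UMIs, Cenpa with 35, Cenpf with 31 and Cdk1 with 28. Mki67 was found in 18 of 90 RA and 28 of 134 OIR macrophages without replication genes (20% and 20.9%), at 45.1 and 61.5 CPM, a ratio of 0.45 (-0.07 to 0.98) that the counts did not separate from 0. Cenpa was found in 26.7% of these RA macrophages and 19.2% of RA monocytes, against 3.41% of RA microglia and 1.34% of RA rods.

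Kif23 was the member with the most UMIs in RA monocytes without replication genes. It was found in 13 of 52 RA monocytes without replication genes (25%) at 25.3 CPM, and in 9 of 92 OIR monocytes (9.78%) at 12.3 CPM, a log2 ratio of OIR over RA of -1.04 (-2.29 to 0.16) that the counts did not separate from 0. In RA rods it had 1 UMI and in RA other microglia 4 UMIs in 822 cells. All 34 members summed to 61 UMIs in those 52 monocytes, of which Kif23 had 16, Cenpa 11 and Mki67 9, and Cdk1, Ccnb1 and Ccna2 had 0.

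Between conditions, the summed members were higher in OIR in microglia, macrophages and monocytes, each taken as a whole. In the cluster led by cycle genes the summed levels were close, but the RA level rests on 3 cells with 4, 182 and 408 member UMIs. In all microglia the summed members stood at 602 CPM in OIR (580 to 625) and 36.8 CPM in RA (32.7 to 41.2), a log2 ratio of 4.03 (3.86 to 4.21). There 33 of 33 members compared were at least 2-fold higher, against 9.13% of all genes, with 0 lower against 9.17%. In all macrophages they stood at 1221 and 233 CPM (log2 2.39, 2.21 to 2.58), with 32 of 33 at least 2-fold higher against 13.3% of all genes and 0 lower against 6.98%, and the exception was Cenpf at 0.70 (0.07 to 1.36). In all monocytes they stood at 824 and 462 CPM (log2 0.83, 0.64 to 1.03), with 13 of 30 at least 2-fold higher against 11.5% and 1 lower against 7.78%. Without the monocytes with replication genes, in RA the single cell with 33 members, the levels were 325 CPM in OIR (289 to 365) and 96.4 CPM in RA (73.7 to 124). Without the monocytes with 10 or more members they were 142 CPM in OIR (117 to 170) and 96.4 CPM in RA, with overlapping intervals. With pooled retinas and 1 library each, condition and library cannot be told apart, and more dividing cells and more transcript per cell cannot be separated in these sums.

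In cells with replication genes the members were not higher in OIR. The ratio of OIR over RA was -0.37 (-0.47 to -0.27), and its sign turned under other limits on the cells, as given below with the alternatives. Of the 34 members 1 was at least 2-fold higher in OIR, against 13.9% of all genes, and 3 were at least 2-fold lower, against 13.6%. These were Bub1b (1.69, 0.09 to 3.99) above and Plk1 (-1.44, -2.22 to -0.59), Mki67 (-1.12) and Ect2 (-1.0, -1.96 to 0.09) below. With 8 RA cells these values describe those cells and no more.

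In microglia without replication genes the members were 3.54 higher in OIR on the log2 scale (3.35 to 3.73), and 32 of 33 members compared were at least 2-fold higher, against 7.7% of all genes, and 0 were lower, against 9.35%. Kif2c was the exception, at 0.92 (0.27 to 1.57), from 10.0 CPM in OIR and 5.30 CPM in RA. Ccnb1 had the largest ratio, 6.76 (4.23 to 12.09), from 56 UMIs in OIR and 1 UMI in RA, and Ube2c followed at 5.79 (4.54 to 7.44). In other macrophages the ratio was 1.97 (1.77 to 2.17) with 29 of 32 members higher against 11.4% of all genes and 0 lower against 6.88%, and in other monocytes 1.75 (1.35 to 2.18) with 9 of 11 members higher against 10.5% and 1 lower, Kif23, against 7.89%. The members that did not pass 2-fold in macrophages were Mki67, Cenpf (0.50, -0.17 to 1.20) and Aurkb (0.81, -0.72 to 2.51).

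Few cells held most of this difference. In OIR other microglia, 34 of the 611 cells held 10 or more members and carried 72.6% of the 1614 member UMIs, and 410 cells (67.1%) held none. The remaining 577 cells stood at 110 CPM (100 to 121), above RA microglia with under 10 members at 31.1 CPM (27.4 to 35.2). OIR rods stood at 78.3 CPM (57.9 to 104), with an interval that overlapped that of the 577 cells. In OIR other macrophages 13 of 134 cells carried 73.4% of the member UMIs, and in OIR other monocytes 4 of 92 cells carried 60.1%. The cells with 10 or more members were described after their values had been seen.

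Over both libraries 118 myeloid cells held 10 or more of the 34 members, 110 in OIR and 8 in RA. Of these 60 had replication genes and 58 did not, 14 of them with no replication gene at all. The 58 cells were 35 microglia, 15 macrophages, 4 monocytes and 4 cells of the cluster led by cycle genes. They held a median of 17 members at a median of 4516.5 UMIs, and the 60 cells with replication genes held 27 at 18529 UMIs. Of the 58 cells 38 lay in clusters low in Malat1, against 8 of the 60. In OIR 27 of 55 such cells without replication genes (49.1%, 35.4% to 62.9%) had no Malat1 UMI, against 6 of 55 (10.9%, 4.11% to 22.2%) of those with them and 28.8% (25.7% to 32.1%) of the cells with under 10 members. Scrublet called 0 of the 118 cells a doublet, but only 3 of all 1901 kept myeloid cells, so the count of 0 says little.

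**Figure D4:**
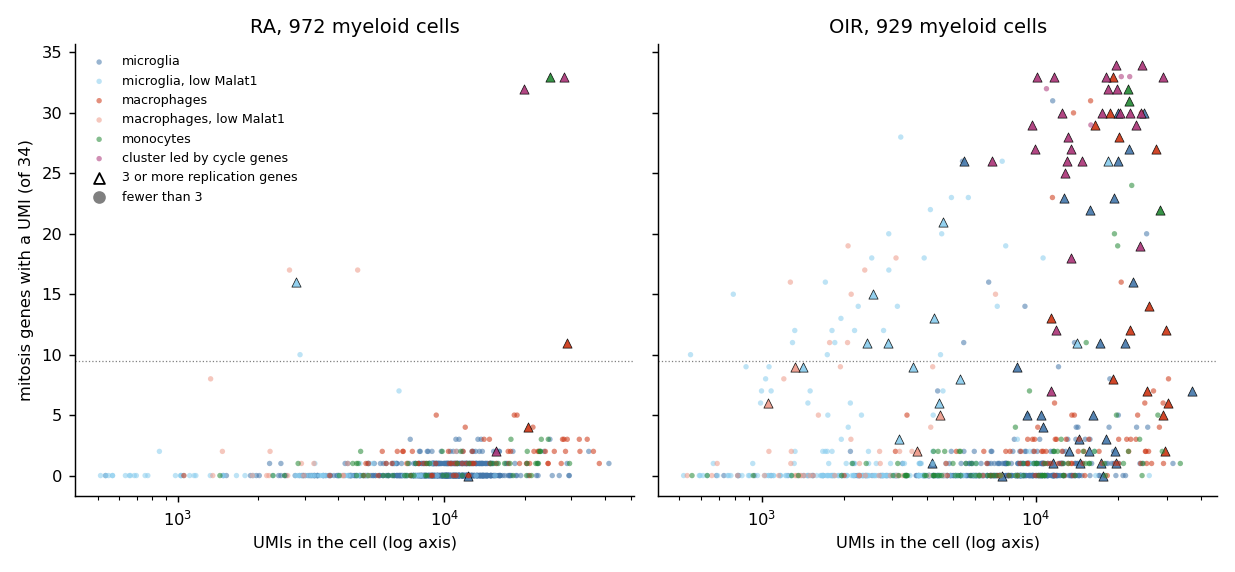
Number of the 34 mitosis genes with a UMI (vertical axis) against the UMIs in the cell (horizontal log axis) for each myeloid cell, RA left and OIR right, with triangles for cells with 3 or more replication genes, dots for the others and colours for the class. Above the dotted line at 10 genes lie 8 RA and 110 OIR cells, and the pale dots of clusters low in Malat1 reach it at low depth.

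Of the clusters low in Malat1, 1 microglia cluster stood out by these cells. Among OIR microglia in all clusters low in Malat1 34 of 232 cells (14.7%, 10.4% to 19.9%) held 10 or more members, against 18 of 420 (4.29%, 2.56% to 6.69%) in the clusters rich in Malat1. Their median depth was lower, 2436.5 against 8834.5 UMIs, while their summed level was higher, 1737 CPM (1645 to 1834) against 385 CPM (366 to 405). Of the 34 cells 31 came from 1 cluster, in which 11 of 160 OIR cells had replication genes. Its 10 leading genes were Cryba4, Crybb1, Fabp5, Cst7, Stmn1, Phgdh, Cdk4, Ranbp1, Anp32b and Ppp1r14b, of which 1 was on the cycle gene lists. In that cluster 31 of 160 OIR cells (19.4%, 13.6% to 26.4%) and 2 of 74 RA cells held 10 or more members. In the other microglia cluster low in Malat1 3 of 72 OIR cells did (4.17%, 0.868% to 11.7%). OIR macrophages gave 8 of 53 cells (15.1%, 6.75% to 27.6%) in the cluster low in Malat1 and 14 of 99 (14.1%, 7.95% to 22.6%) in the cluster rich in it. The part of RNA loss or depth in these values was not tested.

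The 2 kinds of cells differed in which mitosis genes they held. As shares of all member UMIs in cells with 10 or more members, 7 members made up more in the cells without replication genes with an interval above 0, 6 made up less and 21 had an interval that held 0. Cdc20 made up 3.68% of member UMIs without and 1.81% with replication genes (log2 1.02, 0.65 to 1.40). The others that made up more were Ccnb1 (0.97, 0.61 to 1.33), Cenpa (0.92, 0.63 to 1.21), Ube2c (0.87, 0.64 to 1.09), Ccnb2 (0.79, 0.48 to 1.09), Plk1 (0.68, 0.17 to 1.19) and Birc5 (0.26, 0.02 to 0.49). Of these Cdc20, cyclin B1, cyclin B2, Ube2c and Plk1 are known from late G2 to the exit from mitosis. Aurkb and Ndc80, among the 6 that made up less, also act in mitosis. So do Aurka, Kif20a and Tpx2, whose intervals held 0. The phase of the cells was not tested.

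The members that made up less were Ndc80 (-0.95, -1.55 to -0.39), Top2a (-0.91, -1.16 to -0.67), Pbk (-0.75, -1.17 to -0.35), Aurkb (-0.72, -1.20 to -0.25), Mki67 (-0.61, -0.82 to -0.40) and Cdk1 (-0.43, -0.69 to -0.17). Top2a made up 9.88% of member UMIs with replication genes and 5.24% without. All 13 genes kept their direction within clusters rich in Malat1 (20 against 52 cells), within microglia with the cluster led by cycle genes (39 against 46), within macrophages (15 against 10) and in cells with at least 2000 UMIs (47 against 60). The 13 genes were picked from these same cells and the sets are parts of them, so this is a description and supports nothing. Within macrophages the intervals of Ccnb1 (-0.10 to 1.78), Ccnb2 (-0.34 to 0.93), Birc5, Ndc80 and Pbk held 0, and those of the other genes of the 13 did not. The interval of Birc5 also held 0 within each of the other sets named above. Those of Plk1 (-0.33 to 0.98) and Aurkb (-0.98 to 0.07) did so within microglia with the cluster led by cycle genes. Within clusters low in Malat1 (38 against 8 cells) Cenpa, Birc5 and Mki67 turned, each with an interval that held 0. These shares were compared after the cells had been seen, and the cells without replication genes were shallower.

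**Figure D5:**
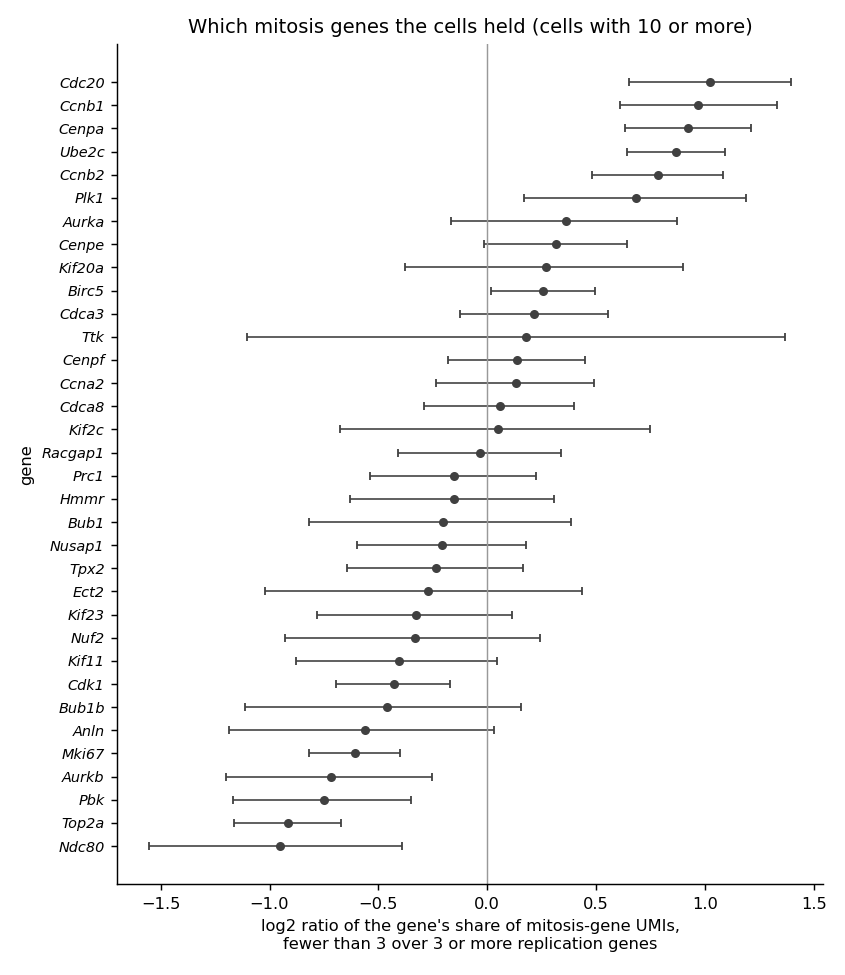
Log2 ratio, for each of the 34 members (vertical axis), of its share of all member UMIs in the 58 cells with fewer than 3 replication genes over that in the 60 cells with 3 or more, among myeloid cells with 10 or more members, with exact 95% bars. Cdc20, Ccnb1, Cenpa, Ube2c and Ccnb2 lie at the top between 0.79 and 1.02, and Top2a and Ndc80 at the bottom.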

How the data were processed

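Retinal cells of pooled mice were sorted and sequenced as 1 10x library per condition. The authors deposited raw UMI counts per gene and cell, whose processing notes name Cell Ranger, Seurat 4.0 and the build mm10, and these counts were used without normalization. The members, lists and limits were chosen with earlier results of these data known. Left out were cells above 20% mitochondrial UMIs and, per library, the top 2% by gene number. Seurat 5.3.0 (R 4.3.3) integrated the libraries on 2841 anchor genes, left of 3000 once cell cycle genes were taken out (30 dimensions). It clustered at resolution 0.5. A cluster took the name of the marker list with most genes among its 10 leading genes (at least 25% of cells, at least 100 CPM, pseudocount of 5 CPM), or else of the list with a median log2 ratio of at least 0.5. Clusters with C1qa in 80% of cells could take only myeloid names, a limit set after seeing the data. Scrublet, in scanpy 1.11.5, called 4 RA and 2 OIR doublets, which stayed in.

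Levels are a class's UMIs of a gene or list over all its UMIs, as CPM. Intervals at 95% are exact: Poisson for a level, Clopper-Pearson for a share and conditional for a log2 ratio, each checked on simulated counts. They were computed in Python 3.11.15 (SciPy 1.17.1, NumPy 2.4.6, pandas 2.3.3), and matplotlib 3.10.9 drew the plots. A gene needed 10 UMIs over both classes to be compared, and a count of 0 was set to a floor of 3 UMIs per class. All members were named, and of the other mitosis genes the 5 with the largest ratios and those below 2-fold. Cells are not replicates, so no test was made. Promoter sequences came from RefSeq.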

Additional observations from a re-analysis of the deposited data

Results flagged for a closer look

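Of the 25 OIR cells left out for their number of genes, 16 (64%, 42.5% to 82.0%) had replication genes, and 15 held 10 or more of the 34 mitosis genes. Of the 29 RA cells left out the same way 1 (3.45%) had replication genes. These cells were outside all comparisons above, and their median depth was 41237 UMIs in OIR and 41861 UMIs in RA.

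The summed members went in opposite directions between conditions in 2 classes: OIR over RA was -0.37 in cells with replication genes and 3.54 in other microglia. The difference between the 2 ratios was not tested. The first rests on 8 RA cells, and its sign turned to 0.072 without the limit on gene number and to 0.51 with at least 2 replication genes required.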

How the results depend on the processing

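No paired analysis was possible because each condition had 1 library and the result comes from no test. Of 134 values under other settings, 82 moved by less than their counting interval, 50 moved further and 2 changed sign. The percent of microglia with replication genes (RA 0.243, OIR 6.29) became 0 and 1.93 with cell cycle genes kept among the anchors, 1.46 and 16.0 with at least 2 of the 5 genes required, and 0 and 3.53 with at least 4. It became 0.607 and 9.82 without integration, 0.536 and 11.6 in cells with at least 2000 UMIs, 0.126 and 1.99 when thinned, 0.703 and 9.95 by markers in the cell, and 0.605 and 9.82 with the cluster led by cycle genes counted in. That of macrophages (2.17 and 11.8) became 1.87 and 16.7 without the limit on gene number, 7.61 and 26.3 with at least 2 genes, 1.09 and 5.92 with at least 4, and 0 and 3.12 thinned. That of monocytes (1.89 and 3.16) became 0 and 0 with cell cycle genes kept, 0 and 1.12 thinned, 3.17 and 8.0 without the limit on gene number, 1.89 and 6.32 with at least 2 genes, and 2.33 and 1.69 by markers.

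The log2 ratio of cells with replication genes over other microglia in OIR (3.54) became 5.17 with cell cycle genes kept, 2.82 without integration, 3.63 without the limit on gene number, 3.77 with a mitochondrial limit of 10%, 3.23 in cells with at least 2000 UMIs, 4.15 with at least 2 genes, 3.79 with at least 4, 2.99 thinned, 2.90 by markers in the cell, 2.72 as a mean over cells, 4.65 without clusters low in Malat1 and 2.84 without the cluster led by cycle genes. In RA (7.45) it became 6.92 without the limit on gene number, 6.31 with at least 2 genes, 7.82 with at least 4, 8.09 thinned, 7.18 by markers, 7.12 as a mean over cells and 6.63 without the cluster led by cycle genes.

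OIR over RA in other microglia (3.54) became 2.08 with cell cycle genes kept, 4.27 without integration, 3.28 with the 10% limit, 3.95 in cells with at least 2000 UMIs, 2.67 with at least 2 genes, 3.92 thinned, 3.91 by markers, 4.18 as a mean over cells and 2.58 without clusters low in Malat1. In cells with replication genes (-0.37) it turned to 0.072 without the limit on gene number and to 0.51 with at least 2 genes, and became -0.63 with at least 4, -1.17 thinned, -0.21 as a mean over cells and -0.25 without the cluster led by cycle genes. The cause was not tested. The settings that move or leave out the cluster led by cycle genes or the clusters low in Malat1 were chosen after seeing the data. The number of cells limits the RA values with replication genes, which rest on 8 cells, and the monocyte shares, which rest on 1 and 3 cells.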
